A study of Danio rerio with 8 samples.

Results

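Hairy/enhancer of split genes (her, hes and hey in zebrafish) encode basic helix-loop-helix repressors, many but not all of which keep neural progenitors from differentiating. The classical route to their expression is Notch signalling: a Delta or Jagged ligand on one cell cleaves Notch on its neighbour, and the freed intracellular domain joins Rbpj and Mastermind to switch the genes on. The repressors then recruit Groucho/Tle corepressors and silence proneural genes such as neurog1. In zebrafish, some members are instead expressed as a prepattern that marks progenitor pools without a need for Notch, and Fgf signalling also restrains neurogenesis in the hindbrain. The data were therefore examined for how 10 family members behaved when the Fgf receptor Fgfr1 was activated.

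The members were chosen by name: her2, her4.1, her4.2, her6, her9, her12, her13, her15.1, hey1 and hey2. In the table of 32189 Ensembl genes, 7 of them were found through a unique entry with their own name, with capitals allowed (her2, her4.1, her4.2, her12, her15.1, hey1 and hey2). her6 and her9 were taken from the only rows named HES1 (ENSDARG00000006514) and HES4 (ENSDARG00000056438), their human orthologues, so these names rest on orthology. her13 is one of 2 rows named HES6, the other being zebrafish hes6, and the name does not tell them apart, so both are given. This made 11 rows for the 10 members, and all 11 passed the filter on low counts that left 18075 genes for testing. The 6 members her2, her4.1, her4.2, her12, her15.1 and hey1 were treated as Notch-dependent from background knowledge, her6 and her9 as Notch-independent, and her13 and hey2 were not assigned.

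The study compared 4 control and 4 ca_fgfr1 libraries, each from the hindbrain of 1 embryo dissected with adjoining tissue at 24 to 25 hours post-fertilisation (hpf). All embryos came from the Tg(hsp70:ca-fgfr1) cross and were reared at 28.5°C, warmed to 38.5°C for 30 min at 22 hpf, and returned to 28.5°C for 2 h. Controls were labelled wild type and had the same heat shock. The ca_fgfr1 embryos carried constitutively active fgfr1 under the heat-inducible hsp70 promoter, which is not restricted to neural cells. The study separated the groups by qPCR on the extracted RNA.

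Libraries held 13173019 to 20541155 counts, with 21708 to 23702 genes detected in each. Levels are given in CPM, the count of a gene as a share of the library total, with totals scaled by edgeR's trimmed-mean (TMM) factors. They are compared for 1 gene across libraries, not between genes, since gene lengths were not used. Hindbrain segment markers (5 of 5 tested, summed level 326 to 542 CPM) and the neural progenitor markers sox2, sox3 and sox19a (1214 to 1922 CPM) were present in every library. Of the presomitic mesoderm markers, in which her1 and her7 act in the segmentation clock, none of 4 passed the filter (summed level 0.0937 to 1.26 CPM). The summed muscle markers were at 603 CPM in control replicate 4, against 6.56 to 82.9 CPM in the other libraries. The summed blood markers were at 118 CPM in control replicate 3, against 2.57 to 68.6 CPM in the other libraries. The Fgf response genes gave a reference for activation, in a list chosen with earlier results of these data known. All 11 had a positive log2 fold change (median 1.65), though etv5a (0.04) and spred1 (0.02) lay near 0. Of the 11 genes, 6 did not overlap between groups, against 3.34% of all tested genes. For spry1 the groups almost touched, with ca_fgfr1 replicate 2 and control replicate 2 both at 3.41 CPM. edgeR called 1 of the 11 genes at an adjusted p of 0.05 (spry2), against 0.0498% of all tested genes. Control replicate 1 stood apart from the other controls, with a mean correlation of 0.893 across genes against 0.926 to 0.940 for the rest. Member results that rest on it are given with and without it. Fold changes of single genes outside the member list are given with all 8 libraries only.

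No her or hey gene passed the test between groups, and with all 8 libraries the family did not move in one direction. With edgeR's quasi-likelihood test, 0 of 11 rows were called at an adjusted p of 0.05, where 0.0498% of all tested genes were called. Of the rows, 6 had a positive and 5 a negative log2 fold change, with a median of 0.08 against -0.04 over all genes. At an unadjusted p under 0.05 there were 2 rows (her6 and hey1), both higher in ca_fgfr1, against 5.34% of all genes. DESeq2 also called 0 rows at an adjusted p of 0.05 (0.454% of all genes). It gave 2 rows at an unadjusted p under 0.05, against 1232 of the 18075 tested genes. In none of the 11 rows were the 2 groups fully separated, where 3.34% of all genes were. Without control replicate 1, only her4.2 (-0.24) and HES6 ENSDARG00000019335 (-0.21) had a negative log2 fold change. The median over all genes was 0.0057 in that fit.

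**Figure D1:**
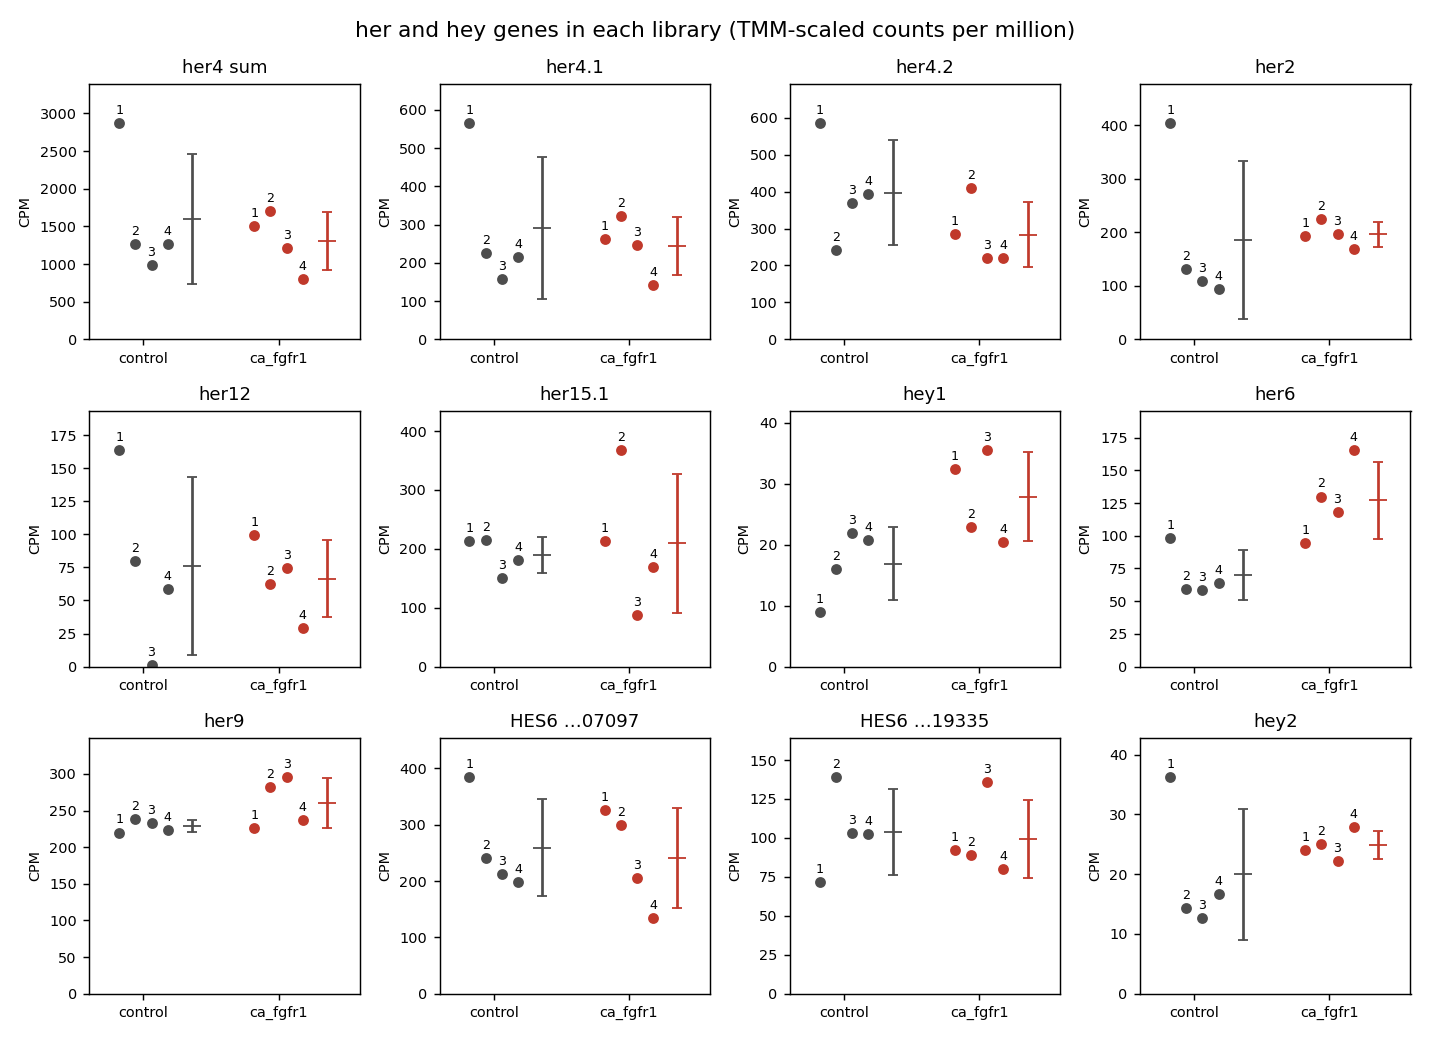
Level of each her and hey row and of the summed her4 rows, in TMM-scaled CPM, in each library. Points are libraries labelled by replicate number, and the bar beside them gives the mean and SD (n = 4). Control replicate 1 is the highest of all 8 libraries for the her4 sum (2877 CPM), her2 (405 CPM) and hey2 (36.3 CPM) and the lowest for hey1 (8.90 CPM).

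Among the Notch-dependent members, the her4 genes are the typical targets of Notch in zebrafish neural progenitors and belong to the Hes5 type. RefSeq's annotation of a later assembly (GRCz12tu) places her12, her4.2, her4.1, her4.3, her4.4 and her4.5 one after another on the same chromosome. The spans of her4.1 and her4.2 overlap there. The counting program shares reads among such copies, so the 5 her4 rows were also summed. The summed level was 2877, 1261, 985 and 1262 CPM in control replicates 1 to 4 and 1502, 1700, 1214 and 804 CPM in ca_fgfr1 replicates 1 to 4. The groups overlapped, with the highest and the second highest library in different groups and the lowest in ca_fgfr1. The log2 fold change was -0.29 ± 0.36 SE (95% interval -1.08 to 0.49, edgeR adjusted p = 0.926). Control replicate 1 decided its sign: without it the value was 0.15 ± 0.24 (adjusted p = 0.726), against -0.47 to -0.15 without any other single library.

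her4.1 followed the sum. It was at 567, 225, 159 and 214 CPM in control embryos and 262, 323, 246 and 142 CPM in ca_fgfr1 embryos. Its difference on the log2 scale was -0.26 ± 0.40 (edgeR adjusted p = 0.942). her4.2 was at 587, 241, 370 and 393 CPM in control embryos and 286, 409, 221 and 220 CPM in ca_fgfr1 embryos. Its log2 fold change of -0.49 ± 0.30 (95% interval -1.16 to 0.18, edgeR adjusted p = 0.866) was the lowest of the 11 rows, and it stayed negative without any 1 library (-0.73 to -0.24).

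The division of counts among the her4 copies differed from embryo to embryo. her4.1 took a steady 16.1 to 20.2% of the summed her4 counts in all 8 libraries. her4.3 took 6.70% and 3.76% in control replicates 3 and 4, against 13.8 to 20.0% in the other 6 libraries. In the same 2 controls her4.2 took 37.6% and 31.2%, against 18.2 to 27.4% elsewhere, and her4.4 took 18.7% and 18.2%, against at most 14.9% elsewhere. Control replicates 2 and 4 had nearly the same summed level, 1261 and 1262 CPM, with 19.4% and 3.76% of it in her4.3. How reads were divided among copies was not tested.

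**Figure D2:**
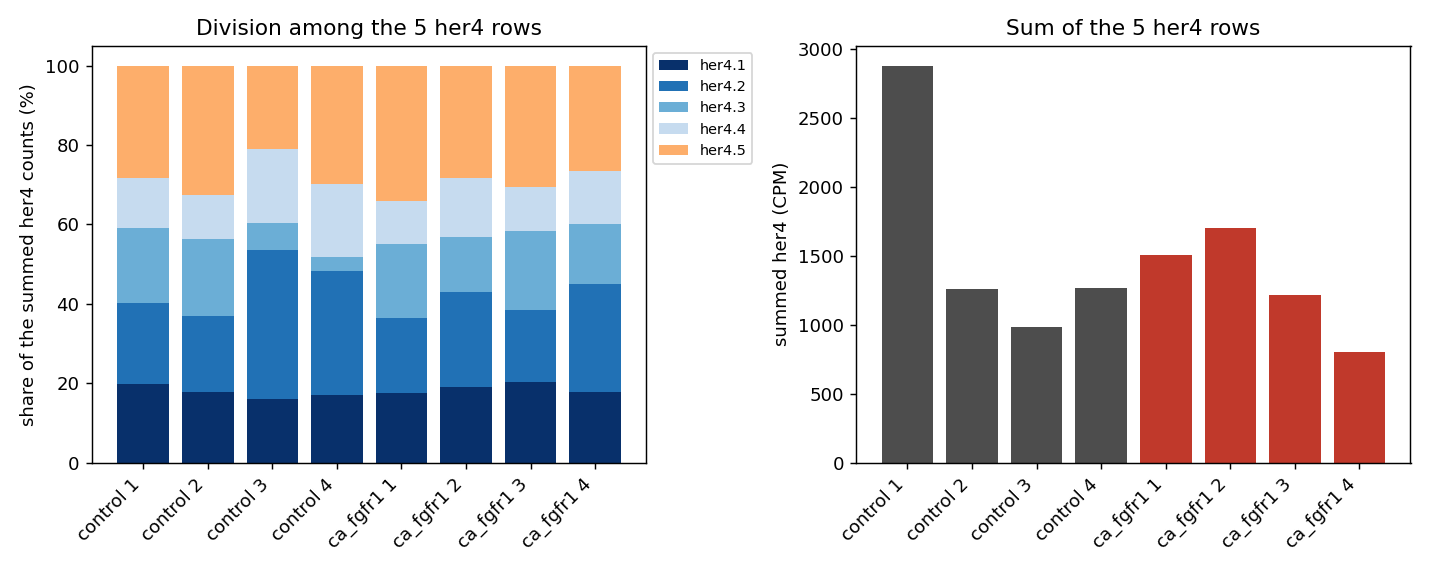
Left, share of the summed her4 counts (%) assigned to each of the 5 her4 rows in each library. Right, summed her4 level (CPM), with controls in grey and ca_fgfr1 in red. The her4.3 share is 6.70% and 3.76% in control replicates 3 and 4 and at least 13.8% in the other libraries, while the sum of control replicate 1 (2877 CPM) is above all others.

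her12, the neighbour of the her4 copies and also of the Hes5 type, had the widest spread of the members. It was at 164, 80.1, 1.13 and 58.5 CPM in control embryos and 99.8, 62.6, 74.3 and 29.5 CPM in ca_fgfr1 embryos. The value of 1.13 CPM stood for 22 counts in control replicate 3, where the other libraries had 451 to 2091 counts. This control was also 1 of the pair with a low her4.3 share, but control replicate 4, the other of the pair, had her12 in the range of the remaining libraries. The log2 fold change of -0.19 ± 0.88 (95% interval -2.12 to 1.74) had the widest interval of the 11 rows, so neither a 3-fold rise nor a 3-fold fall was outside it.

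her2 and her15.1 are Hes5-type genes that lie next to each other in the same RefSeq annotation, followed by her15.2. her2 was at 405, 132, 109 and 94.7 CPM in control embryos and 193, 226, 197 and 169 CPM in ca_fgfr1 embryos. Controls 2 to 4 lay below all ca_fgfr1 libraries and control replicate 1 above them all. With 8 libraries the log2 fold change was 0.08 ± 0.42 (edgeR adjusted p = 0.986), and without control replicate 1 it was 0.80 ± 0.18 (adjusted p = 0.144).

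her15.1 was at 213, 215, 150 and 182 CPM in control embryos and 213, 368, 87.1 and 169 CPM in ca_fgfr1 embryos. The 4 controls were close together, while the highest and the lowest library were both ca_fgfr1 (log2 fold change 0.14 ± 0.37, edgeR adjusted p = 0.973). Its close copy her15.2 is not a member of the list, and the pair summed to between 433 and 904 CPM in the control embryos and between 334 and 752 CPM in the ca_fgfr1 embryos. her15.1 made up 23.6 to 40.1% of the pair in controls. In ca_fgfr1 replicates 1 to 4 its share was 35.4, 49.0, 21.6 and 50.7%, so the highest share was not in the library with the highest level.

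hey1, a Hes-related repressor of the YRPW type and a Notch target, was the Notch-dependent member that differed most between groups with all 8 libraries. It was at 8.90, 16.0, 21.9 and 20.8 CPM in control embryos and 32.4, 22.9, 35.6 and 20.5 CPM in ca_fgfr1 embryos. Replicates 1 to 3 of ca_fgfr1 lay above all controls, and replicate 4 between them. The log2 fold change was 0.72 ± 0.32 (95% interval 0.02 to 1.41), with an unadjusted p of 0.0449 and an adjusted p of 0.866 in edgeR. It stayed positive without any single library (0.51 to 0.85), but the unadjusted edgeR p rose above 0.05 under several settings, to 0.122 with library totals only and to 0.153 without ca_fgfr1 replicate 3. Control replicate 1, high for most members, was the lowest library for hey1, and without it the value was 0.51 ± 0.25 (edgeR adjusted p = 0.217). In that fit her2, at 0.80, differed more than hey1.

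Of the Notch-independent members, her6 showed the largest difference of all 11 rows. her6 is the counterpart of mammalian Hes1, which holds progenitors in an undifferentiated state. It was at 98.0, 59.3, 58.5 and 64.1 CPM in control embryos and 94.6, 130, 118 and 166 CPM in ca_fgfr1 embryos. Controls 2 to 4 lay well below every ca_fgfr1 library, and control replicate 1 lay above ca_fgfr1 replicate 1 only. The log2 fold change was 0.86 ± 0.26 (95% interval 0.30 to 1.43), a 1.82-fold difference, with an unadjusted edgeR p of 0.00629. It ranked 141 among 18075 genes and did not pass adjustment over them (edgeR adjusted p = 0.789; DESeq2 adjusted p = 0.264). It was positive in all 18 alternative fits (0.68 to 1.06), and without control replicate 1 it was 1.06 ± 0.21 (adjusted p = 0.144).

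Fgf response genes are given beside her6, with no order read between them. Their summed level was 973, 971, 1412 and 1834 CPM in ca_fgfr1 replicates 1 to 4, against 317 CPM in control replicate 1 and 509 to 543 CPM in the other controls. dusp6, which encodes a phosphatase that dampens the pathway, was at 133, 198, 216 and 479 CPM in ca_fgfr1 replicates 1 to 4 and at 60.3 to 68.5 CPM in controls. Single genes of the list differed in order: the transcription factor gene etv5b was highest in ca_fgfr1 replicate 3 (384 CPM, against 287 CPM in replicate 4) and was at 35.7 CPM in control replicate 1, against 95.7 to 119 CPM in the other controls.

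her9, the other prepattern gene, was the steadiest member. It was at 220, 238, 233 and 223 CPM in control embryos and 226, 282, 296 and 237 CPM in ca_fgfr1 embryos. Replicates 2 and 3 of ca_fgfr1 lay above all controls, and replicates 1 and 4 within their range (log2 fold change 0.19 ± 0.19, 95% interval -0.22 to 0.60, edgeR adjusted p = 0.905). A 2-fold change in either direction was outside this interval. With all 8 libraries, the median log2 fold change was 0.53 for the Notch-independent pair and -0.05 for the Notch-dependent members. Control replicate 1 weighed on this contrast. Without that library, her2 was at 0.80, her4.1 at 0.28, her4.2 at -0.24, her12 at 0.50, her15.1 at 0.19 and hey1 at 0.51. In the same fit her6 was at 1.06 and her9 at 0.16. The difference between the Notch-independent and Notch-dependent classes was not tested.

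**Figure D3:**
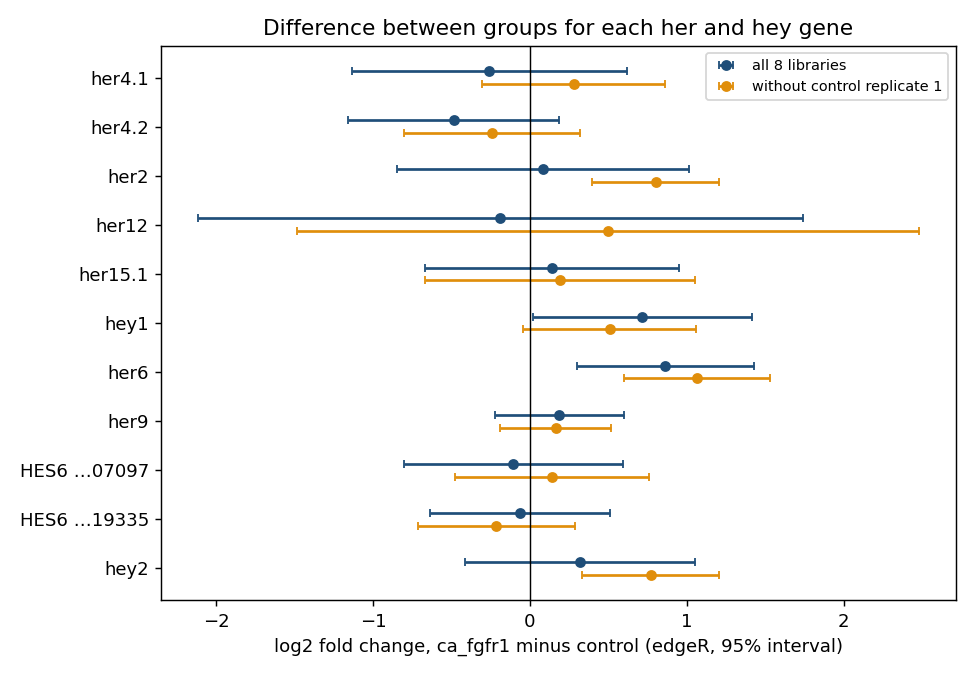
Log2 fold change of each row, ca_fgfr1 minus control, from edgeR with its 95% interval. Blue points use all 8 libraries and orange points leave out control replicate 1. her6 is at 0.86 and 1.06, her2 moves from 0.08 to 0.80, and her4.1 changes sign from -0.26 to 0.28.

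With all 8 libraries, the differences of the unassigned members lay within the spread of the libraries. her13 is one of the HES6 rows, and hes6 itself carries the older name her13.2. HES6 ENSDARG00000007097 was at 385, 241, 213 and 199 CPM in control embryos and 325, 300, 206 and 134 CPM in ca_fgfr1 embryos (log2 fold change -0.11 ± 0.32, edgeR adjusted p = 0.975). HES6 ENSDARG00000019335 was at 71.5, 139, 103 and 102 CPM in control embryos and 92.5, 88.9, 136 and 80.2 CPM in ca_fgfr1 embryos (log2 fold change -0.06 ± 0.26, edgeR adjusted p = 0.983). The rows disagreed on control replicate 1, which was the highest library for the first and the lowest for the second.

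hey2, known as gridlock for its role in forming the first artery of the zebrafish trunk, was at 36.3, 14.3, 12.6 and 16.6 CPM in control embryos and 24.1, 25.1, 22.2 and 27.8 CPM in ca_fgfr1 embryos. As for her2, controls 2 to 4 lay below all ca_fgfr1 libraries and control replicate 1 above them (log2 fold change 0.32 ± 0.33, edgeR adjusted p = 0.907; without control replicate 1, 0.77 ± 0.20, adjusted p = 0.144). Because hey2 marks arterial cells elsewhere, vascular markers are given beside it: kdrl, cdh5, fli1a, sox7 and tie1 summed to 60.7 to 184 CPM in controls and 82.0 to 111 CPM in ca_fgfr1, with the lowest sum in control replicate 1, where hey2 was highest. Single markers differed: kdrl, sox7 and tie1 were lowest in control replicate 1, but cdh5 and fli1a were not. cdh5 was at 6.37 CPM there, against 5.11 CPM in ca_fgfr1 replicate 3. fli1a was at 27.6 CPM there, against 16.7 CPM in ca_fgfr1 replicate 1. In such bulk samples, a change in the number of cells of a type cannot be told apart from a change in RNA per cell.

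Control replicate 1 stood out for most members. It was the highest control for 7 of the 11 rows and the lowest for 3, and the highest of all 8 libraries for 6. Its level over the mean of the other controls was 3.62 for her2, 3.52 for her12, 2.85 for her4.1 and 1.62 for her6, but 0.951 for her9 and 0.455 for hey1. The neuronal markers elavl3 and elavl4 summed to 197 CPM in this library and 162 CPM in ca_fgfr1 replicate 2, against 543 to 898 CPM in the other 6. The summed otic markers were lowest in the same 2 libraries (122 and 227 CPM, against 235 to 496 CPM). Single otic genes differed: in ca_fgfr1 replicate 2 otomp was at 95.5 CPM and oc90 at 59.7 CPM, against 74.4 and 65.5 CPM in ca_fgfr1 replicate 4. In control replicate 1 and ca_fgfr1 replicate 2, the summed progenitor markers were within the range of the others (1659 and 1665 CPM, against 1214 to 1922 CPM). Most of that sum was sox3 (1231 and 1214 CPM). The other progenitor markers were lower in part: sox19a was at 324 CPM in control replicate 1 against 541 to 666 CPM in the other controls, and sox2 was lowest of all libraries in ca_fgfr1 replicate 2 (78.0 CPM). Epidermal markers were highest in control replicate 1 (18200 CPM, against 5494 to 11853 CPM). The part of tissue content in the her levels was not tested.

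Without control replicate 1, 3 of the 11 rows (her2, her6 and hey2) had an unadjusted p under 0.05 and groups that did not overlap, all higher in ca_fgfr1. In that fit 26.3% of all tested genes had an unadjusted edgeR p under 0.05 and 21.5% did not overlap, so 3 of 11 was near the share of all genes. None of the 11 rows was called at an adjusted p of 0.05. With ca_fgfr1 replicate 2 left out as well, 4 rows had an unadjusted edgeR p under 0.05, as did 3304 of all tested genes. In that fit her6 was at 1.06 ± 0.23, hey2 at 0.77 ± 0.21 and her2 at 0.74 ± 0.19 (edgeR adjusted p = 0.264 for each). hey1 was at 0.60 ± 0.25 (edgeR adjusted p = 0.273), and the her4 sum was at 0.0077 ± 0.24.

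**Figure D4:**
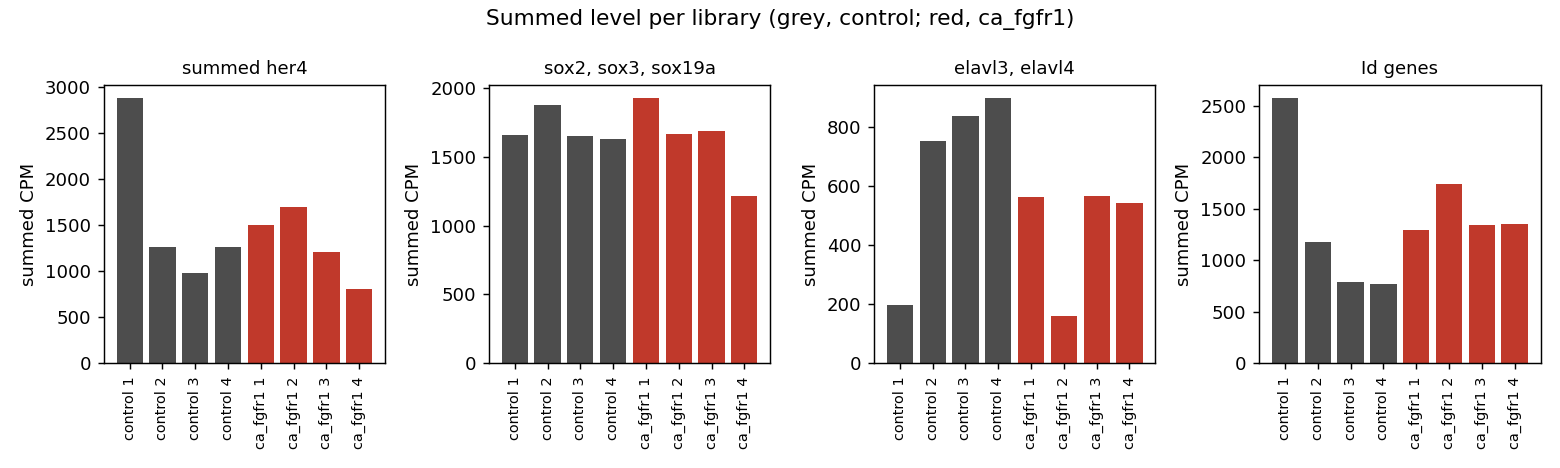
Summed level (CPM) per library of the 5 her4 rows, of the progenitor markers sox2, sox3 and sox19a, of the neuronal markers elavl3 and elavl4, and of the 5 Id genes. Grey bars are controls and red bars ca_fgfr1. Control replicate 1 has the highest her4 and Id sums (2877 and 2571 CPM), and it and ca_fgfr1 replicate 2 have the lowest neuronal sums (197 and 162 CPM).

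The genes around the her repressors gave the pathway context. Across Notch ligands, receptors and modifiers, nuclear effectors, proneural genes, Id genes and the remaining family, 61 rows were tested and 0 were called by edgeR at an adjusted p of 0.05. With all 8 libraries, 19 of these were higher and 42 lower in ca_fgfr1, where 8298 of all tested genes were higher and 9777 lower. Directions without control replicate 1 were not counted. The median difference on the log2 scale was -0.20 against -0.04 for all genes. A single row had an unadjusted edgeR p under 0.05, against 5.34% of all tested genes. No row was without overlap, against 3.34% of all tested genes, and edgeR called 0.0498% of all tested genes.

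The Notch receptors were lower in ca_fgfr1 in 4 of 4 rows, though none was called. The single row with an unadjusted p under 0.05 was among them: NOTCH1 ENSDARG00000103554 was at 143, 244, 469 and 538 CPM in control embryos and 259, 75.8, 201 and 156 CPM in ca_fgfr1 embryos (log2 fold change -1.01 ± 0.45, unadjusted p = 0.0464, edgeR adjusted p = 0.866). The summed receptors were at 189 to 720 CPM in controls and 127 to 363 CPM in ca_fgfr1, and the lowest library of each group was the one with the lowest neuronal markers. Control replicate 1 thus had the highest her4 sum and the lowest receptor sum of the controls. Single receptors differed in ca_fgfr1. Both NOTCH1 rows were lowest in replicate 2. notch3 was lowest in replicate 4 (31.8 CPM, against 34.7 CPM in replicate 2) and notch2 in replicate 1 (9.64 against 9.81 CPM). The part of neuronal content in the receptor levels was not tested.

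Among the Notch ligands, 7 of 9 rows were lower and 2 higher. Both rows named DLL1, taken as deltaA and deltaD, had log2 fold changes of -0.05 and -0.48, and dlc, which encodes deltaC, was at 0.51 ± 0.23 (edgeR adjusted p = 0.866). Of 15 modifier rows, 12 were lower. These include lfng, which encodes a glycosyltransferase that tunes Notch to its ligands (log2 fold change -0.21 ± 0.24), and mib1, the ubiquitin ligase needed for ligand activity (-0.93 ± 0.43, edgeR adjusted p = 0.866). Both rows named NRARP, a feedback inhibitor that is itself a Notch target, lay near 0 (-0.11 and -0.036). Among nuclear effectors and corepressors, 8 of 10 rows were lower, such as tle2a, a Groucho-type partner of Her proteins (-0.67 ± 0.31, edgeR adjusted p = 0.866).

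The proneural genes, which Her proteins repress, were split, with 4 of 9 rows higher and 5 lower. neurog1 was at 0.02 ± 0.30, and the later-acting neurod1 and neurod4 at -0.66 ± 0.32 and -0.53 ± 0.37. Of the 5 Id genes, which encode dominant-negative partners of proneural factors, 4 were higher and id3 was lower (-0.72 ± 0.35). The Id gene with the most counts, id1, was at 2146 CPM in control replicate 1 and at 626 to 977 CPM in the other controls. her4.1 and her2 were also highest in that library.

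None of the remaining family members was called by edgeR at an adjusted p of 0.05, and none had an unadjusted p under 0.05. her3, the row named HES3, was at 37.0 CPM in control replicate 1 and 9.44 to 11.8 CPM in the other controls, against 15.3 to 30.0 CPM in ca_fgfr1 (log2 fold change 0.26 ± 0.44). her8a was steady, at 164 to 233 CPM in controls and 153 to 272 CPM in ca_fgfr1 (0.02 ± 0.23). her5 and her11, which act at the midbrain-hindbrain boundary, were at most 0.230 CPM in any library and were not tested, and her1, her7 and heyl did not pass the filter either.

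**Figure D5:**
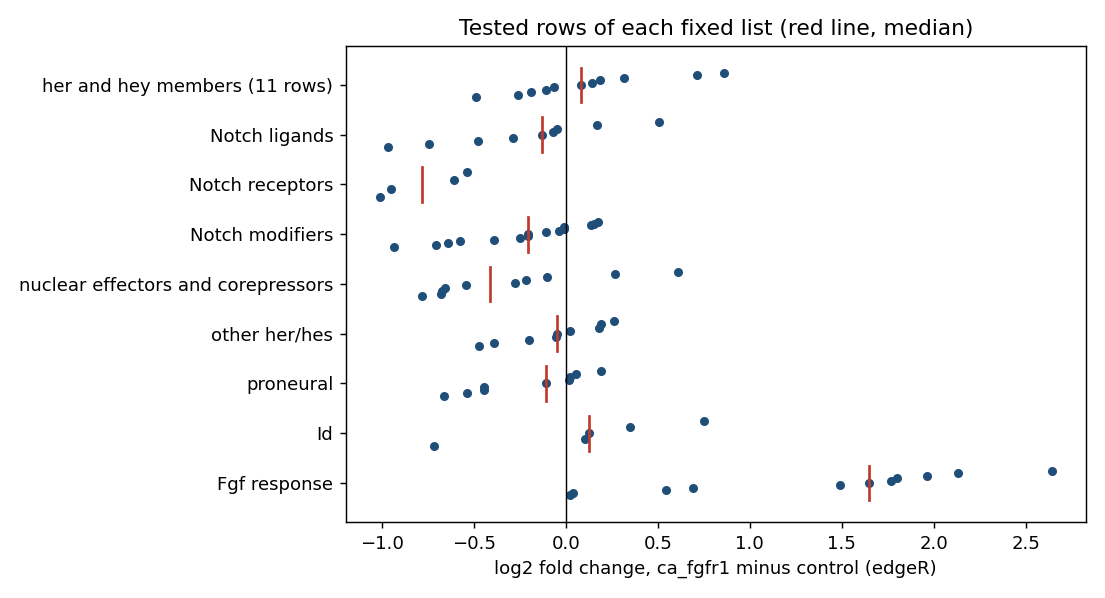
Log2 fold change (edgeR, ca_fgfr1 minus control) of every tested row in each list, with the median as a red line. The her and hey members centre on 0.08, the Notch receptors on -0.78 and the Fgf response genes on 1.65.

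To place the her patterns among other genes, each gene with a mean of at least 10 CPM was ranked by the root mean square difference of its centred log2 CPM over the 8 libraries. The summed her4 rows were nearest to si:ch211-202f3.3 (difference 0.123), GXYLT1 ENSDARG00000022550 (0.129) and sertad2a (0.133), where the median gene differed by 0.592. her6 was nearest to DIMT1 ENSDARG00000005057 (0.0739), MARVELD1 ENSDARG00000011724 (0.0795) and RASSF1 ENSDARG00000004840 (0.119), with a median of 0.587. her9 was nearest to rsf1b.1 (0.0676), GLRX3 ENSDARG00000098785 (0.0725) and CHMP6 ENSDARG00000102024 (0.0774), with a median of 0.412.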

How the data were processed

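RNA of 8 single hindbrains was amplified, sequenced as single-end reads and aligned by the authors to GRCz10 (Ensembl release 89) with STAR 2.5.1b through RSEM 1.2.31. The deposited values are RSEM expected counts per gene that the authors rounded to whole numbers, without scaling for depth. Reads shared by close copies are divided between them. Strand use was not stated, so overlapping genes are uncertain. In RefSeq's annotation of GRCz12tu, the spans of her2 and her15.1 overlap flnba, and that of hey2 overlaps esco2 and hddc2. The spans of her6 and her9 each overlap an unnamed locus there, and that of hes6 overlaps itm2cb. Whether these overlaps affected the counts was not tested. Column names were read as C for control and F for ca_fgfr1, and no column was unused. Symbols came from a table that named 26350 of the 32189 IDs (81.9%).

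The main test was edgeR 4.0.16 in R 4.3.3 (filterByExpr, TMM, glmQLFit and glmQLFTest, 8 libraries, no covariates, two-sided), with limma 3.58.1 and DESeq2 1.42.0 as alternatives. Benjamini-Hochberg adjustment covered all tested genes. Each standard error was taken as the size of the log2 difference divided by the root of its F statistic. The steps were tested on simulated data. For the her4 sum, the 5 rows were replaced by their sum before fitting. All 10 members and the genes of the lists could be named, with the 3 nearest patterns of the her4 sum, her6 and her9. Members and lists were chosen with earlier results of these data known. No pair of libraries of a group agreed within sampling noise (chi-square per degree of freedom at least 24.7).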

Additional observations from a re-analysis of the deposited data

Results flagged for a closer look

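Each gene's 4 libraries were examined for a single extreme value in each group, over 11 rows and the her4 sum (24 groups). In 5 of them the distance from an extreme library to the next one took up more of the spread than Dixon's 95% limit allows. Chance flags about 1 in 20 groups, and the rows are not independent, since her4.1 is part of the her4 sum. All 5 were control replicate 1. It stood at 405 CPM for her2, against 94.7 to 132 CPM in the other controls (distance 0.880 of the whole spread), at 567 against 159 to 225 CPM for her4.1 (0.838), and at 2877 against 985 to 1262 CPM for the her4 sum (0.853). For her6 it was at 98.0 against 58.5 to 64.1 CPM (0.858), and for hey2 at 36.3 against 12.6 to 16.6 CPM (0.832). The source of these values was not tested.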

How the results depend on the processing

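No her or hey row and no pathway row was called under any alternative run: other scaling factors, other filters, DESeq2, limma-voom, robust fitting, the study's criteria, the replicate block (0 member calls) and leaving out libraries. her4.2, hey1, her6, her9 and hey2 kept their sign throughout. Rows at an unadjusted p under 0.05 numbered 1 to 4 over 18 settings, fewer than the reported 2 in 7 of them. The count over all genes also moved, from 577 without control replicate 3 to 4857 without control replicate 1, against 966 in the main test. It was 3304 in the setting with 4 rows, which left out control replicate 1 and ca_fgfr1 replicate 2. The sign of the remaining member rows depended on the setting. Without 1 library, log2 fold changes ran from -0.47 to 0.15 for the her4 sum, -0.13 to 0.80 for her2, -0.46 to 0.28 for her4.1, -0.60 to 0.50 for her12, -0.30 to 0.37 for her15.1, -0.28 to 0.14 for HES6 ENSDARG00000007097 and -0.28 to 0.11 for HES6 ENSDARG00000019335. limma-voom gave 1.08 for her12 and -0.024 for her15.1. Leaving out control replicate 1 and ca_fgfr1 replicate 2 together, chosen after seeing the data, gave 0.0077 for the her4 sum, 0.12 for her4.1, 0.54 for her12, -0.22 for her15.1 and 0.029 for HES6 ENSDARG00000007097. Control and ca_fgfr1 libraries of the same replicate number had correlations of -0.293, -0.0132, 0.22 and 0.194 after centring each group. Pairs with different numbers were not compared, so whether the numbers pair the libraries was not tested. The replicate block gave 0.27 for her12, -0.028 for her15.1 and -0.21 for the her4 sum. The causes were not tested. Over all genes, calls at an adjusted p of 0.05 numbered 9 with edgeR, 82 with DESeq2, 14 with no filter, 2 with the replicate block, 13 without control replicate 1 and 1 without ca_fgfr1 replicate 3. Summing only her4.1 and her4.2, or her4 with her12 and her15, kept the negative sign. With 4 embryos a group, the intervals of most members span at least 1 log2 unit.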
